A study of Mus musculus with 6 samples.

Results

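The 10 genes described here encode transporters that carry bile acids and other organic anions across the hepatocyte: the uptake carriers Slc10a1, Slco1a1, Slco1a4, Slco1b2 and Slco2b1, the canalicular exporters Abcb11, Abcb4 and Abcc2, and the basolateral exporters Abcc3 and Abcc4. They were chosen by symbol, each matched 1 row of 41096 annotated rows in the count table, and all 10 passed the filter on low counts. Polyadenylated RNA was sequenced from mouse liver without exposure (control, 3 libraries) or with exposure to DEHP (3 libraries), di(2-ethylhexyl) phthalate, a plasticizer of polyvinyl chloride. The labels give no strain, sex, age, dose, route or duration, and name no animals, so p-values measure only the spread between these libraries, which may be technical. Total counts ran from 10410098 to 14229803 per library.

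Hepatocytes take up bile acids from sinusoidal blood, pump them into the bile canaliculus and so drive bile flow. Sodium-coupled uptake runs through the Slc10a1 product (NTCP), while the organic anion transporting polypeptides (OATPs, the Slco genes) carry bile acids, bilirubin conjugates, hormones and drugs without sodium. ATP-driven pumps of the ABC family export to bile, and other ABC pumps of the basolateral membrane return solutes to blood, a route known to be induced when bile flow is blocked. Nuclear receptors that sense bile acids and foreign compounds (FXR, PXR and CAR) and the oxidative stress factor NRF2 are known regulators of many of these genes.

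The promoters of 3 members whose exposed and control libraries did not overlap are shown because 2 of them, Slco1b2 and Slco1a4, are neighbours that differed in opposite directions, and the other, Abcc4, had the largest fold change. Each is the 250 bases before a RefSeq start site in GRCm38.p6, on the gene's own strand and 5′ to 3′. Slco1b2 lies at chr6:141629268-141629517 (plus strand), Slco1a4 at chr6:141856221-141856470 (minus strand), and Abcc4 has windows at chr14:118706220-118706469 and chr14:118676932-118677181 (minus strand). Capitals mark matches, on either strand, to a nuclear receptor half-site (AGGTCA), the core of the antioxidant response element bound by NRF2 (TGACNNNGC) or the core of the xenobiotic response element (GCGTG).
Slco1b2: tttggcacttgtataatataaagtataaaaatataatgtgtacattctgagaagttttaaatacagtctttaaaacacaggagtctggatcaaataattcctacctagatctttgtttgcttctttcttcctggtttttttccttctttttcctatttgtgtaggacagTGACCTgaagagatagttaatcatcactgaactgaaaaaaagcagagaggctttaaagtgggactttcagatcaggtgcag
Slco1a4: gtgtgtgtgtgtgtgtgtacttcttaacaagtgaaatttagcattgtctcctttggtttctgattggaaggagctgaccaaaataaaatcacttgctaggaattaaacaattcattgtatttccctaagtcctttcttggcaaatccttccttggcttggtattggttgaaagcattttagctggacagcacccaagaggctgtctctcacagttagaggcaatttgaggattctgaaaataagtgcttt
Abcc4 window 1: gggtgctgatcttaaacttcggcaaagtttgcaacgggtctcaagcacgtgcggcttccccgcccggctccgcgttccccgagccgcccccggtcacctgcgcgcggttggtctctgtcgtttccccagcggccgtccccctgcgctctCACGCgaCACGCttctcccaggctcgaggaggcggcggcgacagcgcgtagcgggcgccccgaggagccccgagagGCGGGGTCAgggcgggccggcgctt
Abcc4 window 2: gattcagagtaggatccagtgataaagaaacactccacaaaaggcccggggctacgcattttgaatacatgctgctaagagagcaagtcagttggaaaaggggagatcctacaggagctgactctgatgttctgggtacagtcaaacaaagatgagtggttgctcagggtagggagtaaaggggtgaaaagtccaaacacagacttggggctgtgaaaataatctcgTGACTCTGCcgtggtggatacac
The table of promoters held 9 of the 10 members, with 13 windows, and Abcc3 had no entry. In these sequences Slco1b2 held 1 half-site on the minus strand, starting 81 bases before the start site, and Slco1a4 held none of the 3 motifs. Both Abcc4 windows held an antioxidant response element core, 25 and 23 bases before their starts, and window 1 also held 2 xenobiotic response element cores, which did not overlap it. Across all members, 5 of 13 windows held the half-site, 3 the antioxidant core and 3 the xenobiotic core. Of all 32851 promoter windows of that length, 4607, 3338 and 9250 held these motifs. The base composition differed between the windows: G and C made up 33.6% of the Slco1b2 window, 39.2% of the Slco1a4 window and 72.0% of Abcc4 window 1. These matches describe letters, and no binding was measured.

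Control replicates 1 and 2 stood apart from the other 4 libraries in the sums of interferon-stimulated and of acute phase genes. The summed level of 14 interferon-stimulated genes was 3793 and 2886 CPM (counts scaled to a common library total) in them, 345 in control replicate 3 and 302 to 373 in the exposed livers. Acute phase genes, the liver's response to inflammatory cytokines, summed to 55111 and 51297 CPM over 17 genes in those controls, 29906 in control replicate 3 and 23626 to 29137 in exposed livers. Hp and Hpx, the most abundant, weighed most in that sum, at 23965 and 15969 CPM in control replicate 1 and 8305 and 6745 in control replicate 3. Single acute phase genes differed: Lcn2, Orm2, Apcs and Itih4 were also highest in control replicates 1 and 2, while Crp, Cp, Fga, Fgb and Fgg did not set them apart. All 6 hepatocyte markers (Alb, Apoa1, Ttr, Apoc3, Tat, Cps1) were abundant in every library, summing to 92457 to 150293 CPM. The values of the 10 transporters are therefore also given without control replicates 1 and 2, which leaves 1 control library.

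None of the 10 transporter genes passed an adjusted p of 0.05 (edgeR quasi-likelihood test over 12468 genes), where 0.0722% of all genes passed. At an unadjusted p of 0.05, 4 transporters were higher in exposed livers, where 6.11% of all genes were, and 1 was lower, where 6.97% were. The same 5 genes, Slc10a1, Slco1b2, Slco1a4, Abcc3 and Abcc4, were those whose exposed libraries did not overlap the controls. Among all genes 9.17% lay wholly higher and 8.57% wholly lower. DESeq2 called 2 of the 10, Slco1b2 and Abcc4, both higher, where it called 0.938% of genes as higher, and limma-voom called 0, where it called 0.016%. The same 2 passed with no low-count filter, where 1.07% of genes passed as higher, and without control replicate 3, where 0.946% did. The median log2 fold change of the 10 was 0.30, against -0.03 for all genes tested. That median varied with the controls used and was 0.17 without control replicate 1, 0.52 without control replicate 3, and 0.07 without control replicates 1 and 2, where all genes had 0.02. In bulk liver, fewer cells of a type and less RNA per cell cannot be told apart, and this holds for every level below.

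**Figure D1:**
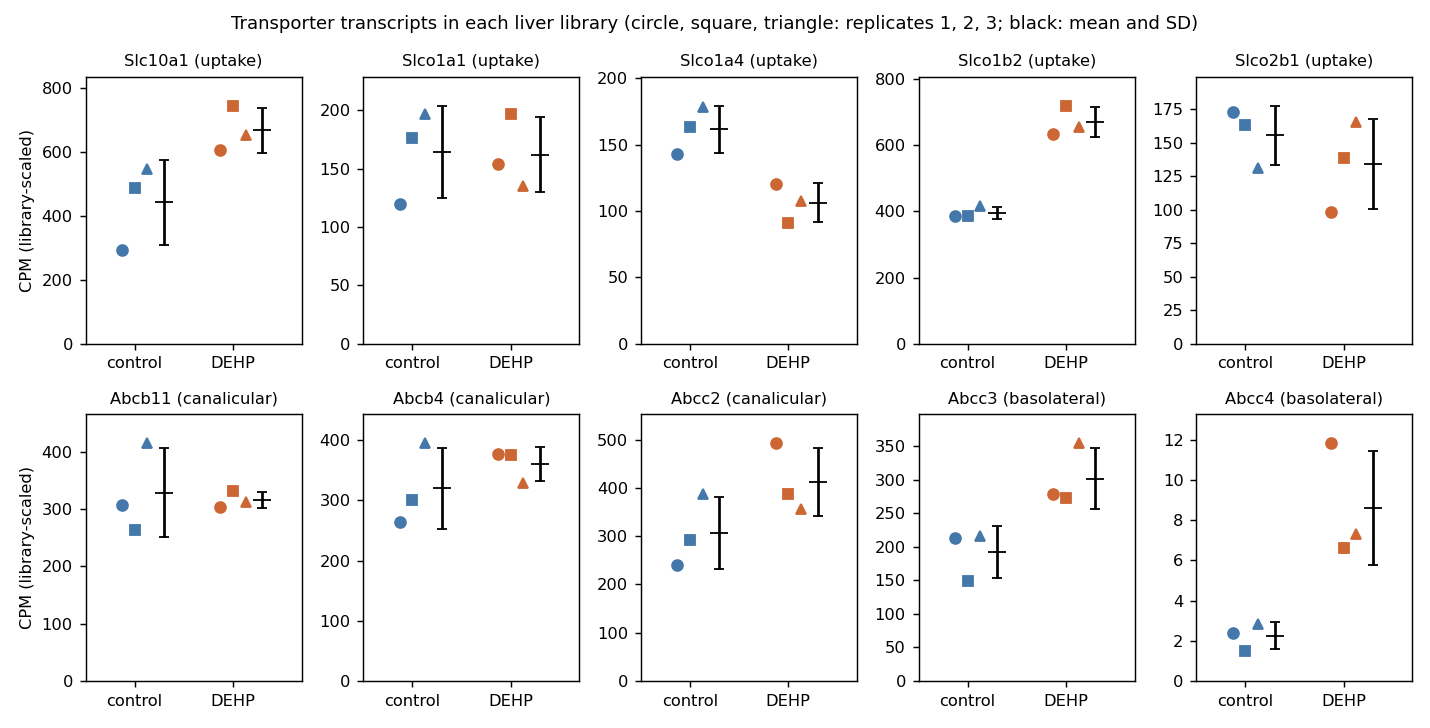
Library-scaled CPM of each transporter gene (y axis, from 0) in 3 control and 3 DEHP libraries (points, shape by replicate), with the group mean and SD in black. Slco1b2 and Abcc4 in DEHP livers sit above all controls, and Slco1a4 sits below them.

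Levels can be compared between genes only per length, as CPM per kilobase of the deposited gene length. Slc10a1 was the most abundant transporter transcript, at 264 ± 79.1 CPM per kb in controls and 399 ± 42.1 in exposed livers (SD, n = 3). Slco1b2 came second at 80.4 ± 3.83 and 136 ± 9.13, and Abcb11 next at 63.9 ± 15.1 and 61.3 ± 2.73. Abcc2, Abcb4, Abcc3, Slco1a1, Slco2b1 and Slco1a4 followed between 25.2 and 36.1 CPM per kb in controls, and each overlapped its neighbour in that order. Abcc4 was last at 0.393 ± 0.119 in controls and 1.50 ± 0.495 in exposed livers, apart from all others. In controls the Slco1b2 and Abcb11 libraries overlapped, while in exposed livers they did not. The order depends on the length used: the deposited length of Abcb4 is 9351 bases and its longest coding transcript in GENCODE M21 is 4079, and per kb of that transcript Abcb4 came next after Slco1b2 in both groups (78.4 ± 16.6 and 88.3 ± 6.81). Slc10a1, Slco1b2 and Abcc4 kept their places (first, second and last) with either length.

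**Figure D2:**
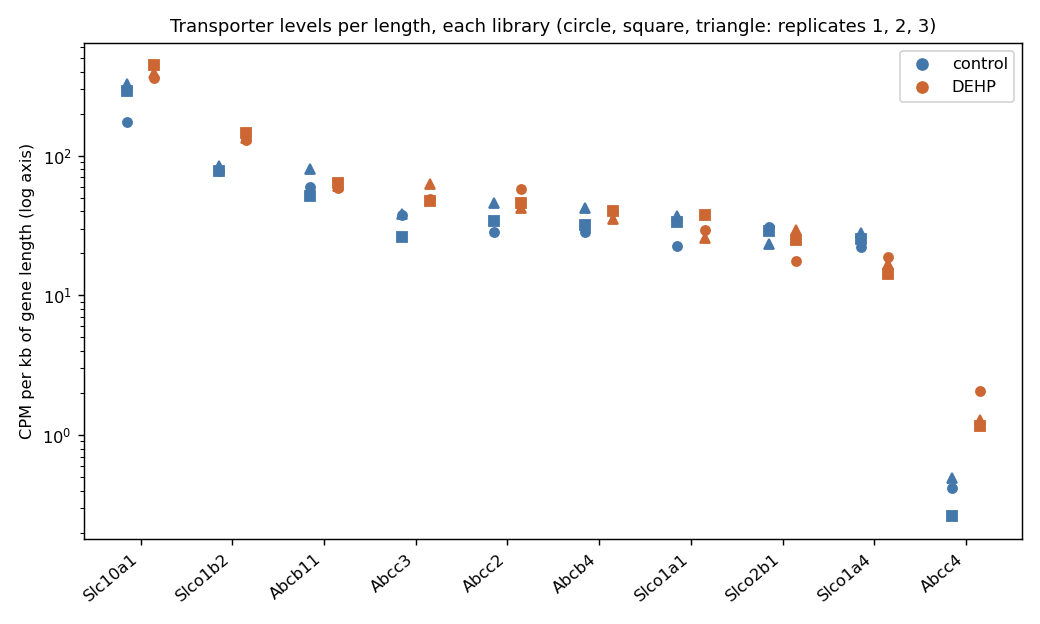
CPM per kb of deposited gene length (log axis) for each transporter, ordered by the mean over 6 libraries, with control and DEHP libraries side by side. Slc10a1 lies at the top, and Abcc4 lies far below the other 9 genes in both groups.

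Among uptake carriers, Slco1b2, which encodes OATP1B2, the rodent counterpart of the human hepatic OATP1B carriers of bilirubin and statins, gave the tightest groups. It was 385, 385 and 418 CPM in control replicates 1 to 3 and 634, 720 and 656 CPM in DEHP replicates 1 to 3. Every exposed library lay above every control, and control replicate 3 lay with the other controls for this gene. The log2 fold change was 0.76 ± 0.18 (SE, edgeR adjusted p = 0.151), a fold of 1.69. It passed with DESeq2 (adjusted p = 0.00409), with no low-count filter (0.0160) and without control replicate 3 (0.0457), and over all alternatives its adjusted p ran from 0.00409 to 0.981. Without control replicates 1 and 2 the log2 fold change was 0.69.

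Slco1a4, which encodes OATP1A4, a carrier of bile acids and of drugs such as digoxin and a known PXR target, was the member whose exposed libraries all lay below the controls. It stood at 143, 163 and 179 CPM in controls and 120, 90.9 and 108 CPM in exposed livers. DEHP replicate 1 lay nearest to the controls. The log2 fold change was -0.61 ± 0.19 (edgeR adjusted p = 0.234), and no alternative brought it past the threshold (0.0979 to 0.865). It was -0.74 without control replicates 1 and 2. Its control libraries lay lowest in replicate 1 and highest in replicate 3.

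Slco1a1, which encodes OATP1A1, a carrier known to be far more abundant in male than in female mouse liver, did not separate the groups. It had 120, 176 and 197 CPM in controls and 154, 197 and 135 CPM in exposed livers, with a log2 fold change of -0.02 ± 0.22 (edgeR adjusted p = 0.982). The groups overlapped along nearly their whole range, and the value was -0.26 without control replicates 1 and 2. The labels name no sex, and Xist, the RNA of the inactive X chromosome, was at 0 to 0.395 CPM in all 6 libraries. Cyp7b1, a bile acid synthesis enzyme that is also male-biased, had 1.09 ± 0.25 (adjusted p = 0.142), while Elovl3 and C6, other male-biased genes, had -0.55 and -0.23 (adjusted p = 0.877 and 0.719).

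Slco1b2, Slco1a4 and Slco1a1 lie together on chromosome 6, within 350.7 kb, by the positions in the count table, whose annotation is that of the C57BL/6NJ strain. Slco1b2 spans 150383712 to 150446107 on the plus strand, Slco1a4 150578837 to 150637333 and Slco1a1 150693282 to 150734438, both on the minus strand, and all are protein-coding. The other 5 rows of this cluster, Slco1c1, Gm5724, Gm6614, Slco1a6 and Slco1a5, held at most 28 counts in any library. Of 50-base stretches in the longest coding transcript, 2.26% for Slco1a1 and 2.73% for Slco1a4 also occur in another gene of the cluster, and 0 for Slco1b2. Reads within such stretches could be shared between rows. The deposited lengths of these 3 genes exceed those transcripts, and the rest and inexact matches were not searched. The sign of the difference was thus positive for Slco1b2, negative for Slco1a4 and near 0 for Slco1a1 within 1 cluster. As a ratio of levels per length, Slco1a4 to Slco1a1 was 0.831 ± 0.133 in controls and 0.559 ± 0.156 in exposed livers (SD, n = 3, no test), with values of 0.984, 0.762 and 0.748 against 0.642, 0.379 and 0.656.

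Slc10a1, on chromosome 12 from 83753246 to 83767933 on the minus strand, encodes the sodium-taurocholate cotransporter. It had 293, 486 and 546 CPM in controls and 605, 744 and 653 CPM in exposed livers. The exposed libraries lay above the controls, but control replicate 1 lay far below the other 2 controls, and control replicate 3 lay nearest to the exposed livers. The log2 fold change was 0.60 ± 0.23 (edgeR adjusted p = 0.322). It was 0.37 (adjusted p = 0.691) without control replicate 1, 0.80 (0.103) without control replicate 3 and 0.30 (0.988) without control replicates 1 and 2. Slc10a1 is known to be repressed by inflammatory cytokines, and its 3 controls had the reverse order of the summed acute phase genes. Between control replicates 1 and 2 the order of that sum came with Hp, at 23965 and 15810 CPM. Only Saa3, Hp, Hpx and Lbp were higher in control replicate 1, and the other listed genes were higher in replicate 2. Among exposed livers DEHP replicate 2 had the highest acute phase sum (29137 CPM) and the highest Slc10a1. The part of acute phase genes in the difference was not tested.

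**Figure D3:**
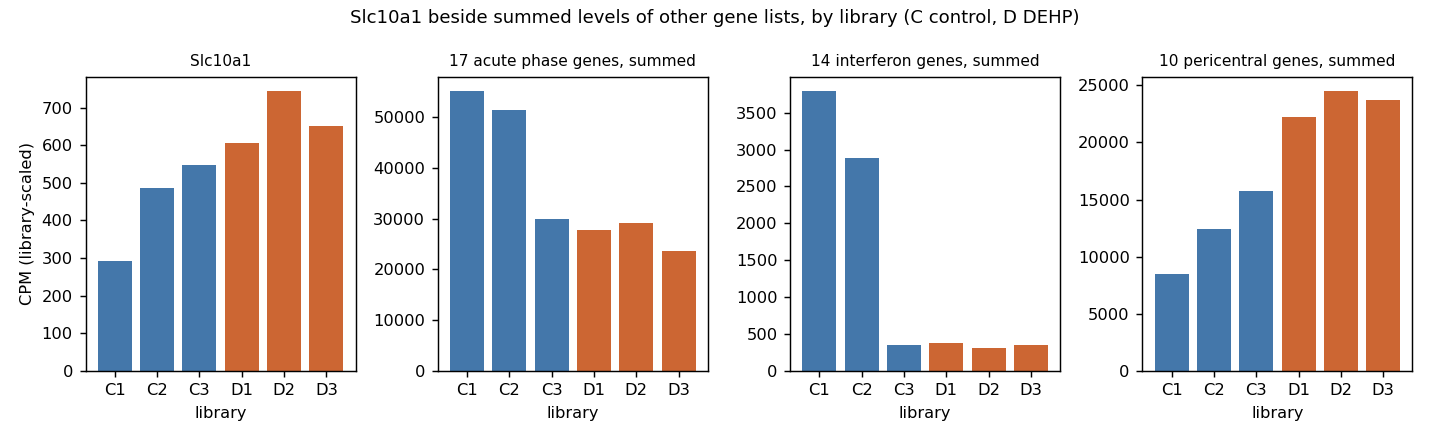
Library-scaled CPM (y axes, from 0) of Slc10a1 and of 3 summed gene lists in control (C1 to C3) and DEHP (D1 to D3) libraries. Slc10a1 is lowest in C1, where the acute phase and interferon sums are highest, though most single acute phase genes are higher in C2. C3 lies near the DEHP livers for the acute phase and interferon sums but not for the pericentral sum.

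Slco2b1, on chromosome 7, encodes OATP2B1, a carrier of steroid sulfates. It had 173, 163 and 131 CPM in controls and 98.3, 139 and 165 CPM in exposed livers. The groups overlapped, and the log2 fold change was -0.21 ± 0.22 (edgeR adjusted p = 0.722). It moved to -0.01 without DEHP replicate 1, the lowest library, and to 0.049 without control replicates 1 and 2. Summed over the 5 uptake genes, the level was 428 ± 88.7 CPM per kb in controls and 606 ± 56.4 in exposed livers. Slco1a4 made up 5.98% ± 0.702 of that sum in controls and 2.77% ± 0.626 in exposed livers. Slco1b2 made up 19.3% ± 3.88 and 22.5% ± 0.620, but these groups overlapped, and control replicate 1 had the highest share of all libraries (23.8%).

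At the canalicular membrane no member separated the groups. Abcb11, on chromosome 2, encodes the bile salt export pump, the main driver of bile acid secretion and a classical FXR target. It had 306, 264 and 415 CPM in controls and 303, 331 and 312 CPM in exposed livers. The exposed libraries lay inside the range of the controls, and control replicate 3 was the highest library. On the log2 scale the difference was -0.06 ± 0.21 (edgeR adjusted p = 0.937), and it was 0.17 without control replicate 3 and -0.38 without control replicates 1 and 2. Gm13613, a row described as related to Abcb11, held at most 5 counts per library.

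Abcb4, on chromosome 5, encodes the phospholipid translocator (MDR2) that supplies phosphatidylcholine to bile. It had 264, 300 and 395 CPM in controls and 377, 375 and 328 CPM in exposed livers, with a log2 fold change of 0.17 ± 0.20 (edgeR adjusted p = 0.763). The groups overlapped through control replicate 3, and the value was 0.38 (adjusted p = 0.417) without it and -0.12 without control replicates 1 and 2. Of 50-base stretches in its transcript, 3.42% also occur in Abcb1a or Abcb1b.

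Abcc2, on chromosome 19, encodes MRP2, which exports bilirubin glucuronides and glutathione conjugates to bile. It had 241, 291 and 388 CPM in controls and 493, 387 and 358 CPM in exposed livers. Control replicate 3 lay above 2 of the 3 exposed libraries. Its log2 fold change was 0.43 ± 0.22 (edgeR adjusted p = 0.427), 0.65 (0.150) without control replicate 3 and 0.10 without control replicates 1 and 2. Summed over the 3 canalicular genes, the level was 134 ± 29.9 CPM per kb in controls and 148 ± 9.88 in exposed livers.

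Both basolateral exporters were higher in every exposed library than in any control. Abcc4, on chromosome 14 from 120574583 to 120826573, encodes MRP4, which exports bile acids with glutathione, cyclic nucleotides and sulfated conjugates and is known to be induced in cholestasis. Its counts were 34, 19 and 32 in the control libraries and 117, 76 and 86 in the exposed ones, or 2.41, 1.50 and 2.84 CPM against 11.8, 6.63 and 7.31 CPM. The lowest exposed library was more than 2 times the highest control in CPM. The log2 fold change was 1.93 ± 0.40 (SE, edgeR adjusted p = 0.128), a fold of 3.81, the largest of the 10 in size and the 19th smallest p of all genes. The adjusted p was 0.00139 with DESeq2, 5.17e-04 with no low-count filter and 0.0128 without control replicate 3, and over all alternatives it ran from 5.17e-04 to 0.799. Without control replicates 1 and 2 the log2 fold change was 1.60 (adjusted p = 0.799). The level stayed low: in exposed livers Abcc4 was 0.0247 ± 0.00911 times Abcb11 per length, against 0.00610 ± 9.82e-04 in controls.

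Abcc3, on chromosome 11 from 99423296 to 99487166 on the minus strand, encodes MRP3, which returns glucuronides such as bilirubin and morphine glucuronide to blood and is a known CAR and NRF2 target. It had 214, 148 and 217 CPM in controls and 278, 272 and 355 CPM in exposed livers. The groups did not overlap, with DEHP replicate 3 the highest and control replicate 2 the lowest. Its log2 fold change was 0.65 ± 0.21 (edgeR adjusted p = 0.244), and no alternative brought it past the threshold (0.0675 to 0.988). It was 0.49 without control replicates 1 and 2. The ratio of Abcc3 to Abcc2 per length overlapped between the groups, at 1.32, 0.759 and 0.833 in controls and 0.842, 1.05 and 1.48 in exposed livers. Summed, the 2 basolateral genes stood at 34.2 ± 6.89 and 54.5 ± 7.93 CPM per kb, nearly all of it Abcc3 (33.8 and 53.0).

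**Figure D4:**
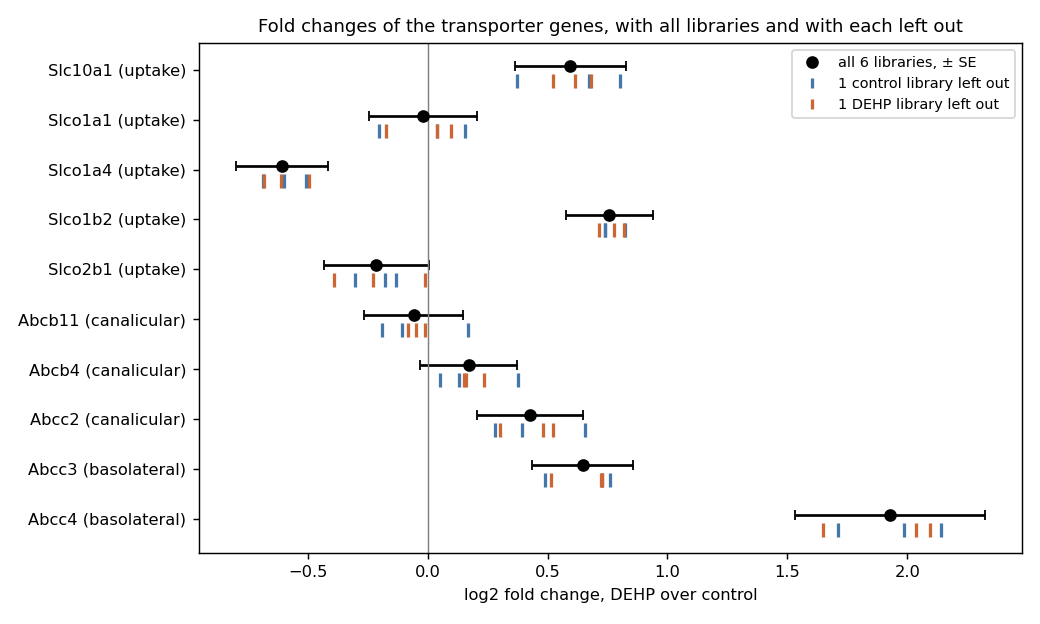
Log2 fold change of DEHP over control for each transporter (x axis), with all 6 libraries (black points, bars are SE) and with 1 library left out (ticks, coloured by the group of the library). Abcc4, Slco1b2, Abcc3 and Slc10a1 stay above 0 and Slco1a4 below 0 in all 6 such fits, while Slco1a1 and Abcb11 cross 0.

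The spread among controls was shared by many members. Control replicate 3 was the highest control for 9 of the 10 genes, Slco2b1 being the exception, and control replicate 1 was the lowest for 5. The median distance from the exposed mean over the 10 genes was -0.47, -0.36 and -0.04 on the log2 scale in control replicates 1, 2 and 3. The summed level of 10 pericentral hepatocyte genes, which are expressed around the central vein, was 8522, 12405 and 15763 CPM in controls and 22238 to 24500 CPM in exposed livers, most of it Cyp2e1. None of the 10 passed over all genes (edgeR). With an unadjusted p under 0.05, 5 were higher and 0 lower, where 6.11% and 6.97% of all genes were. Cyp2a5, Rhbg and Lect2 did not follow the order of the sum in the controls. Periportal genes summed to 2728, 3829 and 4519 CPM in controls and 3620 to 4556 CPM in exposed livers. Of 10 tested, 0 were higher and 2 lower with an unadjusted p under 0.05. The part of these lists in the transporter differences was not tested.

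Genes with the most similar pattern were named for the most abundant member of each role by Pearson correlation of log2 CPM over the 6 libraries, among 8506 protein-coding genes of at least 5 CPM. For Slc10a1 these were Akr1c6, an aldo-keto reductase (r = 0.999), Ctsh, cathepsin H (0.997), and Ubxn7 (0.995). For Abcb11 they were Tsc22d1 (0.992), Helb, a DNA helicase (0.987), and Ip6k2, an inositol hexakisphosphate kinase (0.978). For Abcc3 they were Slc48a1, a heme transporter (0.989), Spg7, a subunit of the mitochondrial m-AAA protease (0.988), and Gpr19 (0.979). With 6 libraries that share groups and depth, and so many candidates, these values are given only as a description. The members did not move as 1 pattern: Slco1b2 had r = 0.91 with Abcc4 and -0.91 with Slco1a4, both across the same 2 groups, and 0.04 with Abcb11.

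Related transporter genes were counted in lists, and none of their members passed over all genes (edgeR). The counts at an unadjusted p of 0.05 below stand against 6.11% of all genes higher and 6.97% lower. Of 7 tested OATP and bile acid carriers outside the 10, 2 were lower (median log2 fold change -0.06, and 0.38 over 8 genes without control replicate 3). The 2 most abundant per length were Slco2a1, the prostaglandin transporter (88.6 ± 12.5 and 64.9 ± 2.61 CPM, -0.45 ± 0.19, adjusted p = 0.344), and Slc10a2, the apical bile acid carrier of cholangiocytes and ileum (5.15 ± 1.43 and 2.12 ± 1.34 CPM, -1.27 ± 0.48, adjusted p = 0.307). Both groups of libraries were apart for each. Beside Slc10a2, the 8 cholangiocyte markers, of which 6 were tested, summed to 61.4 to 109 CPM in controls and 73.1 to 84.1 in exposed livers, and none was at 0 in all libraries. Beside Slco2a1, the 6 sinusoidal endothelial markers summed to 230 to 307 CPM in controls and 131 to 256 in exposed livers, with none at 0, and their part was not tested. The partners of basolateral bile acid export, Slc51a and Slc51b (the OST alpha and beta subunits), fell below the filter, with Slc51b counted 7, 10 and 4 times in control libraries and 1, 0 and 1 times in exposed ones, and Slc51a at 0, 0 and 3 and then 0 throughout.

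Of 10 tested carriers of the SLC22 and SLC47 families, which move organic cations and anions, 1 lay higher (6.11% of all genes) and another lower (6.97%) with an unadjusted p under 0.05 (median 0.06, and -0.12 over 11 genes without control replicates 1 and 2). Slc22a18, an abundant member per length, had 230 ± 39.7 and 226 ± 19.3 CPM (-0.02 ± 0.20, adjusted p = 0.973). The lower gene, Slc22a7, which encodes the organic anion carrier OAT2 and was named after its values were seen, had 24.2, 19.4 and 26.0 CPM in controls and 4.56 to 13.5 CPM in exposed livers (-1.30 ± 0.33, adjusted p = 0.169). DESeq2 called it, where 272 of 12468 genes passed in either direction. EdgeR with no filter called it too, where 496 of 20576 passed.

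Among 10 other canalicular exporters and flippases, 3 were higher at an unadjusted p of 0.05, where 6.11% of all genes were, and 8 had a positive sign (median 0.30). Abcg5 and Abcg8, the paired subunits of the sterol exporter, had 0.32 ± 0.23 (adjusted p = 0.599) and 0.60 ± 0.20 (adjusted p = 0.271), and the libraries of Abcg8 did not overlap. DESeq2 called 1 of the 10 as higher, Abca1, a cholesterol and phospholipid exporter, where it called 0.938% of genes as higher. Of 5 other ABCC genes 0 passed at an unadjusted p of 0.05 (median -0.18). Abcc6, whose product mediates ATP release from hepatocytes, was abundant at 259 ± 66.4 and 229 ± 57.4 CPM (-0.18 ± 0.24, adjusted p = 0.802), and Abcc10 had -0.41 ± 0.39 (adjusted p = 0.709).

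The transcription factors and receptors that govern transporter genes showed no common direction: of 18 tested, 1 was higher at an unadjusted p of 0.05, and the median was 0.00 with 9 positive and 9 negative. Hnf4a, a central hepatocyte factor, had 721 ± 148 and 693 ± 36.6 CPM (-0.06 ± 0.20, adjusted p = 0.937), and Cebpa had 0.02 ± 0.22 (adjusted p = 0.979). Of 19 scaffold, trafficking and junction genes, 1 was higher and 3 were lower at an unadjusted p of 0.05 (6.11% and 6.97% of all genes, median -0.12). Slc9a3r1, the scaffold EBP50, had 0.14 ± 0.25 (adjusted p = 0.856), and the tight junction gene Cldn3 had -0.34 ± 0.22 (adjusted p = 0.546). Pdzk1, a scaffold known to hold OATP1A1 at the membrane and named after its values were seen, had 17.9 ± 2.62 CPM in controls and 8.99 ± 2.67 CPM in exposed livers (-0.996 ± 0.28, adjusted p = 0.189). With no low-count filter edgeR called 2 of the 19, Pdzk1 and Msn, both lower, where 496 of 20576 genes passed in either direction. Without control replicate 3 it called Msn, where 400 of 12890 genes passed. Of 15 enzymes that make and conjugate bile acids, 10 lay higher and 0 lower with an unadjusted p under 0.05, where 6.11% and 6.97% of all genes did, with a median of 0.61. DESeq2 called 4 of them as higher (Cyp7a1, Cyp7b1, Akr1d1 and Sult2a8), where it called 0.938% of genes as higher. With no low-count filter edgeR called 5 of 16, where 1.07% of genes passed as higher. Without control replicate 3 it called 4 of 16, where 0.946% did. Without DEHP replicate 1 it called 1, Cyp7a1, where 19 of 12922 genes passed in either direction. Without control replicates 1 and 2 it called 0 and the median was 0.29. Scp2, a sterol carrier with a thiolase form, had 0.37 ± 0.20 (adjusted p = 0.439), and Slc27a2, a very long chain acyl-CoA synthetase, had 0.55 ± 0.23 (adjusted p = 0.354).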

How the data were processed

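Polyadenylated RNA of 6 mouse liver libraries was prepared with a strand-marking kit and sequenced as paired ends, per the labels' protocols. The authors deposited 1 table of whole-number counts per gene, with a gene length in bases for each row. The submitters' processing notes name GRCm38.p6, while the identifiers are those of the C57BL/6NJ annotation. Aligner, counter and strand setting: not given in the sources used here. Columns were matched to titles (Control to livers without DEHP, High to livers with DEHP), and the design text describes another assay.

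Left out were 1284 rows without a gene name (2.73% to 4.28% of counts). The robust quasi-likelihood test of edgeR 4.0.16 (R 4.3.3) compared exposed with control livers, two-sided and with no covariate, after filterByExpr (minimum count 10) and TMM scaling. P-values were adjusted by Benjamini-Hochberg over 12468 genes, with a threshold of 0.05. CPM refer to TMM-scaled totals, as mean ± SD over 3 libraries, and standard errors derive from the F statistic. The common biological coefficient of variation was 27.8%, and the procedure was tested on simulated data. Members, lists and motifs were chosen with earlier results of these data known. All 10 members are described. From each list of related genes, members past the threshold or else the 2 most abundant per length are named, and other genes are marked as named after their values were seen. A gene that this rule names is not reported here. Alternatives were DESeq2 1.42.0, limma-voom (limma 3.58.1), RLE scaling, a non-robust fit, a block for the replicate number, no low-count filter, a minimum mean of 1 CPM, and each library left out. Leaving out control replicates 1 and 2 together was chosen after seeing the data. Any pair of libraries within a group differed beyond sampling noise (chi-square per degree of freedom at least 31.1). Promoter sequences are from RefSeq and transcripts from GENCODE M21, both on GRCm38.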

Additional observations from a re-analysis of the deposited data

How the results depend on the processing

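Of 140 values of the 10 transporters under the alternatives, 126 kept their sign and their side of the threshold, 6 moved past it and 8 changed sign. The 6 were Slco1b2 and Abcc4 with no low-count filter (log2 fold changes 0.79 and 1.96), with DESeq2 (0.77 and 1.95) and without control replicate 3 (0.82 and 2.14), where 2 transporters passed each time. Signs changed for Slco1a1 with no filter (0.010) and over the fits with 1 library left out (-0.20 to 0.16, positive at 0.04 without control replicate 2, 0.04 without DEHP replicate 1, 0.10 without DEHP replicate 3 and 0.16 without control replicate 3), for Abcb11 without control replicate 3 (0.17), and, without control replicates 1 and 2, for Slco2b1 (0.049) and Abcb4 (-0.12). None of these sign changes concerned a value past the threshold. With 1 library left out, Slco1b2 ran from 0.71 to 0.82, Abcc4 from 1.65 to 2.14 and Abcb11 from -0.19 to 0.17, and the count of transporters past the threshold from 0 to 2. Among related genes, 0 passed with all libraries, 8 with no filter, 6 with DESeq2, and 0 to 5 with 1 library left out. Over all genes, 9 passed, against 496 with no filter, 272 with DESeq2, 2 with limma-voom, 0 without control replicates 1 and 2, and 5 to 400 with 1 library left out (400 without control replicate 3). With 1 library left out of a group, 2 remain there, and the fit pools the spread over both groups. Nothing in the labels says that the shared replicate numbers pair the livers, and the deviations of same-numbered libraries had correlations of -0.02, 0.06 and -0.03. With a replicate block 6 genes passed, 0 of them transporters, and the smallest transporter adjusted p was 0.164. The cause of these differences was not tested. Depth limits Abcc4 most, with 19 to 117 counts per library, while the other 9 members had at least 971.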

Other observations

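Slco1b2 and Slco1a4, neighbours in the OATP cluster, can be set against each other inside each library, which needs no scaling between libraries. The ratio of Slco1b2 to Slco1a4 per length was 3.50, 3.07 and 3.04 in controls and 6.86, 10.3 and 7.93 in exposed livers. Control replicate 3 had the lowest ratio of all 6, at 3.04, but it was close to the 3.07 of another control. The part of interferon-stimulated and acute phase genes in this ratio was not tested. This pair was chosen after the values were seen, and the ratio is given with no test.

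Kupffer cell markers summed to 493 and 399 CPM in control replicates 1 and 2, 126 in control replicate 3 and 150 to 221 in exposed livers. All 6 of 6 markers had counts, and Clec4f and Cd5l were the most abundant. Clec4f, Cd5l, Marco and Timd4 were each highest in control replicates 1 and 2. Adgre1 and Vsig4 in those 2 controls overlapped the exposed livers (log2 fold changes -0.06 and -0.11, edgeR adjusted p = 0.965 and 0.899). Kidney tubule markers summed to at most 0.237 CPM, with Slc22a6 and Slc12a1 at 0 throughout.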
